A study of Homo sapiens with 6 samples.

Results

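The CpGs described here are the unmethylated ones of CpG-sparse stretches of the autosomes in PC-3, a long-established line of human prostate carcinoma cells. They were chosen from measured values. A CpG was taken when at least 10 reads covered it in each of the 6 libraries, when its methylation averaged under 20% over the 6 libraries, and when its window of 1000 bases, counted from the first base of the chromosome, held 1 to 4 CpGs listed in any library. This gave 4899 CpGs in 3109 windows, out of 330421 autosomal CpGs with that coverage (336571 over all chromosomes) and out of 30650 that lay in such windows. The study compared 3 libraries from cells given 160 µM S-adenosylmethionine (SAM) for 5 days with 3 libraries from cells given PBS for 5 days. Genomic DNA was read by bisulfite sequencing, as the named aligner Bismark and the listed percentages of C and T show, in which an unmethylated C is read as T and a methylated C as C. The labels do not say whether replicates were separate cultures, so p-values measure only the spread between these libraries, which may be technical. All coordinates are those of the deposited lists, for which the submitters' processing notes name hg19.

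In mammalian DNA most CpGs that lie outside CpG islands carry methylation, which maintenance methyltransferases copy to the new strand after replication. CpG-poor DNA that stays unmethylated is known from the edges of CpG islands and from distal elements occupied by transcription factors. SAM is the methyl donor of the DNA methyltransferases. A window counts here as sparse by the CpGs that were listed, which depends on where reads fell, so it need not be poor in CpGs in the genome. Bisulfite reads also cannot tell an unmethylated C from a T in the DNA of the cell line itself. Whether any of these CpGs is such a position was not tested.

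Unmethylated CpGs made up a small share of sparse windows. CpGs with at least 10 reads in each of the 6 libraries are called common. Of the common autosomal CpGs in windows of 1 to 4 listed CpGs, 16.0% averaged under 20% and 63.4% over 80%. In windows of 5 to 14 listed CpGs the share under 20% was 28.0%, in those of 15 to 39 it was 57.9%, and in those of 40 or more it was 74.7%. Inside the sparse class the order was not the same. Windows with a single listed CpG had 20.5% of their CpGs under 20%, above the 16.5, 14.8 and 15.2% of windows with 2, 3 and 4.

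The unmethylated CpGs of sparse windows stood farther from 0 than those of dense windows. Their median level was 3.02%, with 0.557 to 8.72% as the middle range from the lower to the upper quartile. CpGs under 20% in windows of 15 or more listed CpGs had a median of 0.137%. At 710 of the 4899 CpGs (14.5%) no library held a methylated read, against 41.7% of the 158552 such CpGs of dense windows. Between 10 and 20% lay 1051 of the sparse CpGs (21.5%) and 6.26% of the dense ones. Among sparse windows the share without a methylated read was 6% in windows with 1 listed CpG, 10.8% with 2, 16.7% with 3 and 19.3% with 4. The mean level went the other way, from 6.32% with 1 listed CpG and 6.07% with 2 to 4.90% with 3 and 4.56% with 4. These levels helped choose the CpGs and are given as a description, with no test.

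**Figure D1:**
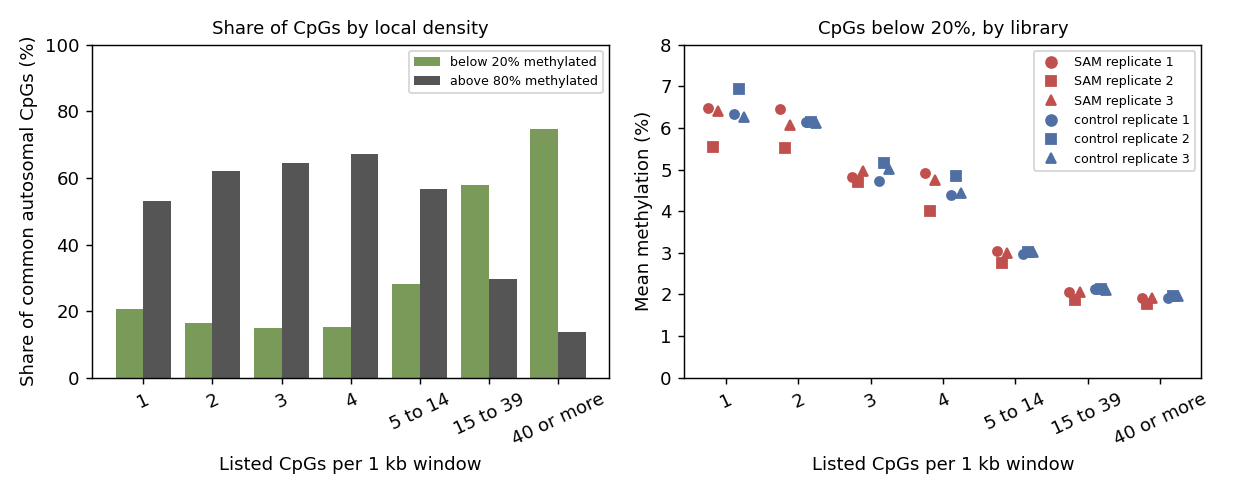
Left, share of common autosomal CpGs (%) that averaged under 20% or over 80% methylation, by the number of listed CpGs in their 1000-base window. Right, mean methylation (%) of the CpGs under 20% in each library, one point per library; the libraries lie between 5.53 and 6.94% in windows with 1 listed CpG and between 1.78 and 1.97% in windows with 40 or more.

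The 710 CpGs without a methylated read were covered less deeply than the others. Their reads summed over the 6 libraries had a median of 472, from 88 to 13787, and those of the other 4189 had a median of 793. A count of 0 at the median depth allows a level of up to 0.636%, and at the greatest depth up to 0.0218%. Such limits, here and below, are 3 divided by the number of reads, an approximate 95% bound and not a hard maximum. These limits cover counting error only, and copies made during amplification are not independent molecules.

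Close to the threshold of 20% the values were as follows. The 3 CpGs just inside were 5771997 of chromosome 1 (mean 19.99%), 138335673 of chromosome 8 (19.99%) and 67000184 of chromosome 16 (19.98%). Just outside lay 77350605 of chromosome 17 (20.01%), 3139259 of chromosome 7 (20.02%) and 24631431 of chromosome 14 (20.03%). Single libraries at the first of these ranged from 0% in SAM replicate 2 to 33.8% in SAM replicate 3. CpGs were also chosen by the mean level of 5 libraries, while the coverage and window conditions still used all 6. Of the CpGs so chosen, 90.6 to 93.5% were under 20% in the omitted library. The mean in the omitted library was 5.73 to 6.18%, and its median 0 to 2.41%. The share above 80% in the omitted library was 0.0204 to 0.655%, and the highest share was in SAM replicate 2 (32 of 4889).

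The 22 autosomes all held such CpGs, from 41 on chromosome 21 to 541 on chromosome 1. Relative to the common CpGs of sparse windows, they made up 6.77% on chromosome 21, 20.7% on chromosome 18 and 20.9% on chromosome 16, with a median of 15.9% over chromosomes. They were scattered. They fell into 2551 bins of 100000 bases, of which 1316 held only 1 and 96 held 5 or more. The highest number in a bin was 10, reached by 4 bins. The first of these, from 2700001 to 2800000 of chromosome 1, had 10 of its 19 common sparse-window CpGs under 20%, in 6 windows. On chromosome 17 from 77300001 to 77400000 it was 10 of 22 in 7 windows, on chromosome 19 from 1600001 to 1700000 it was 10 of 20 in 4 windows, and on chromosome 20 from 59900001 to 60000000 it was 10 of 20 in 6 windows. In each of the 4 bins the SAM and control libraries overlapped. The bin of chromosome 20 was at 10.9, 9.66 and 8.37% with SAM and at 11.9, 8.27 and 7.32% in controls. The bin of chromosome 19 was lower, at 2.33, 3.39 and 5.50% with SAM and 0.994, 1.97 and 4.46% in controls.

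The sparse windows were next divided by the busier of their adjacent windows. In 998 cases (20.4%) an adjacent window held 15 or more listed CpGs, and in 2286 (46.7%) both adjacent windows held none. CpGs over 80% in the same kind of window had a dense neighbour window in 5.66% of cases and an empty one on both sides in 56.1%. Seen from the other side, 38.7% of the common sparse-window CpGs beside a window of 15 or more were unmethylated, against 13.6% with nothing listed on either side, 13.2% beside 1 to 4 and 16.0% beside 5 to 14. The unmethylated CpGs beside dense windows had a median level of 1.05%, and 22.9% of them had no methylated read. Those with nothing listed on either side had a median of 3.95%, and 10.7% had no methylated read. The lowest coverage over the libraries was alike, with a median of 23 reads beside dense windows and 20 with nothing on either side.

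Levels of CpGs outside the own window were not used to choose these CpGs. At 1802 of the 4899 (36.8%) at least 1 common CpG lay within 2000 bases and outside the own window. The mean of these surrounding CpGs was under 20% for 1146 of the 1802, which is 63.6% (exact binomial 95% interval 61.3 to 65.8, treating CpGs as independent, which neighbours are not). It was over 80% for 242 (13.4%) and between these levels for 414 (23%). Around CpGs over 80% in sparse windows the same shares were 13.4% under 20% and 67.4% over 80%, from 5025 CpGs with such neighbours. Around CpGs of 20 to 80% in sparse windows 21.2% had surroundings under 20%. The unmethylated CpGs of sparse windows thus lay in surroundings of either kind. The share with unmethylated surroundings was 75.2% within 1000 bases and 49.9% within 5000 bases.

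**Figure D2:**
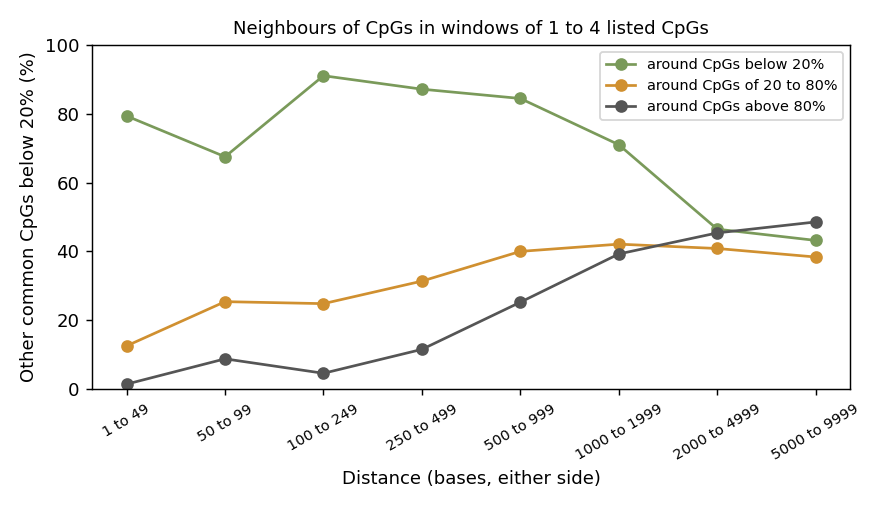
Share (%) of other common autosomal CpGs that averaged under 20%, by distance in bases on either side, around sparse-window CpGs of 3 level classes. Pairs are pooled over own and other windows, so CpGs with many neighbours weigh more. Around CpGs under 20% the share is 91.0% at 100 to 249 bases, 71.0% from 1000 to under 2000 and 46.5% from 2000 to under 5000, and the 3 lines lie between 38.4 and 48.6% in the farthest class, which starts at 5000 bases.

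With distance, the surroundings of the 3 level classes came together. Other common CpGs at 1 to 49 bases from an unmethylated one were under 20% in 79.3% of 7238 cases, and at 50 to 99 bases in 67.5% of 1193. At 250 to 499 bases the share was 87.1%, and from 500 to under 1000 bases it was 84.4%. These counts take in the own window and other windows alike, and a pair of unmethylated CpGs is counted from each side. Around CpGs over 80% the share under 20% went from 1.51% at 1 to 49 bases to 25.3% from 500 to under 1000 and 45.4% from 2000 to under 5000 bases.

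The level of an unmethylated CpG differed with its surroundings. Where the surrounding CpGs averaged under 20%, the median level was 0.911%, and 25.6% of the 1146 CpGs had no methylated read. With surroundings over 80% the median was 4.03%, and 11.2% of the 242 had none. The 414 CpGs with surroundings of 20 to 80% had a median of 5.06%, and 7.73% of them had none. For the 3097 CpGs without a common CpG in the surroundings the median was 3.86%.

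Within single windows the picture was mixed. Of the 3109 windows with an unmethylated CpG, 2024 held at least 2 common CpGs. In 1001 of these (49.5%) every common CpG was under 20%, in 648 (32.0%) the highest was between 20 and 80%, and in 375 (18.5%) another was over 80%. Windows with a CpG over 80% were less often mixed by this count, since 71.5% of 7233 such windows with at least 2 common CpGs held none at 80% or under. No test of this difference was made. Most pairs in a window were close. There were 3755 pairs of an unmethylated and another common CpG less than 50 bases apart, and 3722 of them were read on the same strand. Of the latter the other CpG was under 20% in 62.7% and over 80% in 11.6%. From 50 to under 200 bases 34.5% of 505 same-strand pairs were both under 20%, and in 30.7% the other was over 80%.

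A methylated CpG in the same window accompanied 401 of the 4899 (8.19%). For 316 of them it lay under 50 bases away on the same strand. The 401 had a median level of 4.04%, and 51 had no methylated read. At 197 the step between the neighbours exceeded 90 percentage points. The largest step possible, 0% in all 6 libraries beside 100% in all 6, occurred at 5 CpGs on 5 chromosomes. On chromosome 10 the CpG at 5645984 was at 0% and the one 2 bases before it, at 5645982, at 100%, from at least 46 reads in each library. On chromosome 12 the CpG at 110116645 was at 0% and 110116663 at 100%, from at least 13 reads. The others were 6900362 beside 6900345 on chromosome 17, 37449148 beside 37449206 on chromosome 22 and 144519596 beside 144519607 on chromosome 8, with at least 13, 17 and 16 reads. At 13 reads a count of 0 allows a level of up to 23.1%, and at 46 reads up to 6.52%. In these 5 pairs the unmethylated CpG and its methylated neighbour had the same strand. That the 6 libraries were alike follows from how the pairs were chosen.

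CpGs in wholly unmethylated windows had the lowest level and the narrowest range of the sets. The 2591 whose other common CpGs of the window were all under 20% had a median level of 1.54% and a median range between the highest and lowest library of 4.13 percentage points. The 822 with another CpG of 20 to 80% and none above had a median level of 8.90% and a median range of 13.6 points. For the 401 beside a CpG over 80% the range was 6.73 points, and for the 1085 alone in their window it was 9.56. Dense adjacent windows were more frequent in the first set, at 27.4%, against 10.8, 4.99 and 16.4% in the others.

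These CpGs were listed almost wholly on 1 strand. The lists hold no strand position under 10 reads, so a strand covered by fewer reads does not appear. In all 6 libraries 2386 were listed on the plus strand without the minus strand being listed in all 6, and 2476 the reverse. On both strands were 10 (0.204%), and 27 had neither strand listed in all 6. In single libraries 23 to 132 were listed on both. Among these, 75.4 to 82.6% had strand levels within 10 percentage points, and 3 CpGs in SAM replicate 3 and 1 in control replicate 3 differed by more than 50. The 10 read on both strands in every library included 143560829 of chromosome 8, at 18% on the plus and 12.6% on the minus strand, and 3068335 of chromosome 1, at 1.39% and 10.6%. For 33889574 of chromosome 18 and 148520996 of chromosome 5 no methylated read was counted on either strand.

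Depth differed between the libraries more than methylation did. The unmethylated CpGs of sparse windows were covered by a median of 115, 35 and 122 reads with SAM and 143, 33 and 140 reads in controls, in replicate order. Libraries held 33056018 to 183523792 reads over listed positions. The 2 libraries with the fewest reads showed the most CpGs at exactly 0%, namely 57.4% in SAM replicate 2 and 52.9% in control replicate 2, against 34.6 to 43.1% in the other libraries. Between 4.96 and 7.10% of the CpGs lay above 20% in a given library. Read numbers over these CpGs, on a log2 scale, correlated with Pearson's r of 0.776 to 0.923 among SAM replicate 1, control replicate 1 and control replicate 3, and of 0.887 between SAM replicate 3 and control replicate 2. SAM replicate 2 correlated with the first set at 0.699 to 0.818 and with the latter pair at 0.592 and 0.665. These r are over 4899 CpGs that share reads with their neighbours. The sets cross the treatments.

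The spread of single CpGs between libraries of 1 group is set here beside binomial counting error. That error takes every read as an independent molecule, which amplified reads are not, so it is a lower bound on technical noise. The SD between libraries of a group, taken as a root mean square over the CpGs, was 6.86 percentage points, where binomial counting of the reads allows 3.08. For the 2310 CpGs whose lowest coverage was 10 to 19 reads the SD was 7.66 points against 3.76, and for the 331 with at least 100 reads in every library it was 3.82 against 1.15. The median range between the highest and lowest library went from 8.42 points in the first of these classes to 6.30 and 5.43 at 20 to 49 and 50 to 99 reads and 2.72 in the deepest. The spread was thus smaller at deeper CpGs, and its ratio to that lower bound was 2.04 in the shallowest class and 3.31 in the deepest. The mean level was 5.34% in the shallowest and 5.00% in the deepest class.

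**Figure D3:**
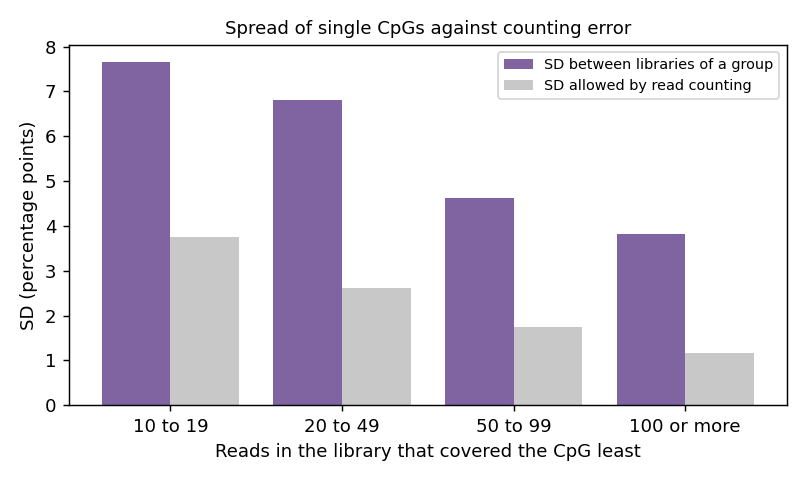
SD (percentage points) of methylation between libraries of the same group at single unmethylated CpGs of sparse windows (purple), and the SD that binomial read counting allows (grey), by the coverage in the library with the fewest reads. The SD between libraries is 7.66 at 10 to 19 reads and 3.82 at 100 reads or more, above the counting SD in each class.

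At the deepest CpG, 46283896 of chromosome 19, the only listed CpG of its window, SAM libraries were at 2.62, 3.31 and 2.81% and controls at 2.88, 2.88 and 3.12%, from 1180 to 20955 reads. The libraries lay within 0.686 percentage points of each other, and the groups overlapped. Next in depth were 41108513 and 41108461 of chromosome 19, which lie in 1 window beside a window of 31 listed CpGs. The first was at 0.721% and the latter at 0.919% on average, and neither left the span of 0.382 to 1.23% in a library.

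At the other end were CpGs that were high in a single library. At 95 CpGs (1.94%) the libraries ranged over more than 50 points. Of these, 59 had 10 to 19 reads in the library with the fewest, 35 had 20 to 49 and 1 had 50 to 99. In 52 CpGs 1 library was above 50% and the other 5 below 20%. SAM replicate 2 was the high library in 18, SAM replicate 1 in 14, control replicate 3 in 11, control replicate 2 in 5, and SAM replicate 3 and control replicate 1 in 2 each. The widest range, 0 to 100%, was reached by 12 CpGs. At 108001189 of chromosome 12 all 20 reads of SAM replicate 2 were methylated, while control replicate 1 stood at 8.84% of 147 reads and the other libraries at 0% of 67 to 356 reads. The CpGs 42788066 and 42788077 of chromosome 15, which lie in 1 window on the same strand, were both at 100% of 18 reads in SAM replicate 1 and at 0% in the other 5 libraries. The median coverage in the high library was 18 to 25 reads for each library except SAM replicate 3. For SAM replicate 3 it was 121.5 reads, from only 2 CpGs. At 1 of these, 51698935 of chromosome 7, it was at 100% of 10 reads.

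The first comparison asked whether SAM moved the mean of these CpGs. Averaged over the 4899, SAM replicate 1 stood at 5.50%, replicate 2 at 4.81% and replicate 3 at 5.38%. Control replicate 1 stood at 5.21%, replicate 2 at 5.56% and replicate 3 at 5.29%. SAM replicate 2 was the lowest and control replicate 2 the highest, and the groups overlapped. With SAM the group mean was 5.23% ± 0.366 and without it 5.35% ± 0.183 (SD, n = 3 each). SAM minus control came to -0.123 percentage points (standard error 0.236), less than the spread between libraries. It was 0.0854 points without SAM replicate 2, -0.258 without SAM replicate 1 and -0.0202 without control replicate 2. Without SAM replicate 3, control replicate 1 and control replicate 3 it was -0.195, -0.196 and -0.152. Libraries were also split by read placement. The difference was 0.251 points for SAM replicate 1 against control replicates 1 and 3. It was -0.463 for SAM replicates 2 and 3 against control replicate 2. Each was without overlap but with a lone library on one side. By r, SAM replicate 2 was nearer to the first set (0.699 to 0.818) than to its own set (0.592 and 0.665). With SAM replicate 2 in the first set the values were -0.0928, where groups overlapped, and -0.183, with a lone library on each side. No p is given for these means, because the CpGs were chosen with results of these data known.

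**Figure D4:**
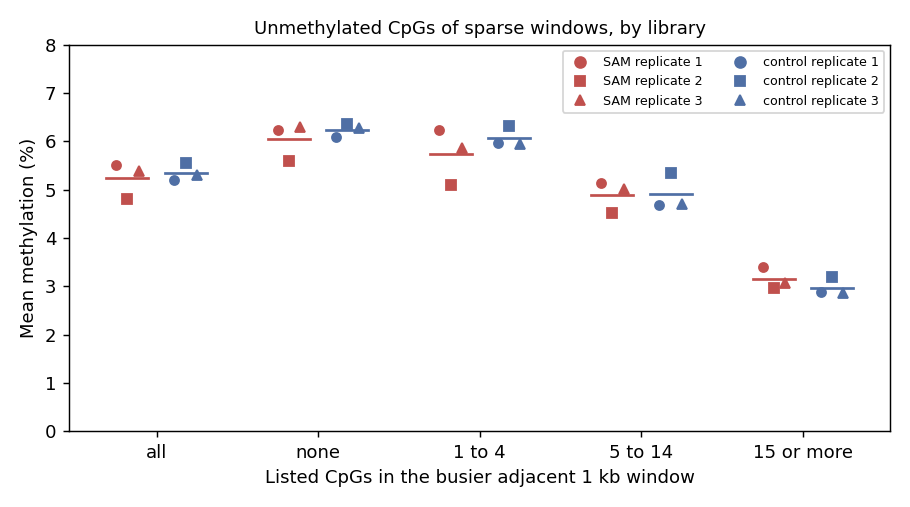
Mean methylation (%) of the unmethylated CpGs of sparse windows in each library, for all 4899 and by the number of listed CpGs in the busier adjacent window; points are libraries and bars are group means. SAM and control libraries overlap in each of the 5 columns, and the CpGs beside dense windows lie lowest, between 2.86 and 3.40%.

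Classes by surroundings did not set SAM libraries apart from controls. For the 2286 CpGs with no listed CpG in either adjacent window the SAM mean was 6.05% ± 0.388 and the control mean 6.24% ± 0.137 (SD, n = 3 each). For the 998 beside dense windows it was 3.14% ± 0.230 against 2.97% ± 0.190 (SD, n = 3 each), a difference of 0.168 points that was the only positive one among the 4 classes by adjacent window. The groups overlapped in those 4 classes, in the 4 classes by number of listed CpGs and in the 4 by the level of the surroundings. They did not overlap for the 10 CpGs read on both strands in every library, where SAM was higher by 2.73 points. That set rests on few separate sites. In it, 98290002, 98290012 and 98290014 of chromosome 8 are close neighbours. No methylated read was counted at 33889574 of chromosome 18 and 148520996 of chromosome 5. By chromosome, 10 of 22 differences were above 0 and 12 below. Other CpGs of the same libraries are set beside these for scale. Those over 80% in sparse windows differed by 0.613 points, and those under 20% in windows of 15 or more by -0.0940, and in both the groups did not overlap. Whether the difference of the unmethylated sparse CpGs departs from these was not tested.

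The second comparison looked for single CpGs. Methylated and unmethylated reads of 257696 CpGs were tested in 1 fit with the quasi-likelihood method of edgeR. Of the 4899 unmethylated CpGs of sparse windows 4189 could be tested, since the 710 without a methylated read were left out. None passed at an adjusted p under 0.05, and the percentage called over all CpGs was 0. At an unadjusted p under 0.05 the test gave 110 of the 4189 (2.63%), against 2.81% of all CpGs tested. Higher with SAM were 71 (1.69%, against 1.48% of all) and lower 39 (0.931%, against 1.33% of all). Limma on log2 ratios also called 0, with 176 (4.20%) unadjusted against 4.07% of all CpGs, 98 higher (2.34%, against 1.99%) and 78 lower (1.86%, against 2.08%). A binomial logistic model that leaves out the spread between libraries called 1109 (26.5%) after adjustment against 28.9% of all CpGs. In total each of these shares was near its background. SAM libraries lay wholly above the controls at 139 of the 4899 (2.84%, against 2.7% of all common autosomal CpGs) and wholly below at 152 (3.10%, against 2.2%). Together this was 5.94%, against 4.91% of all. The same share was 2.32% for CpGs under 20% in windows of 15 or more, and 7.08% for those over 80% in sparse windows. CpGs without a methylated read in any library cannot separate the groups. They were 14.5% of the 4899 and 41.7% of the dense-window CpGs under 20%, so these shares are not on an equal footing. The difference of group means was above 0 at 2132 (43.5%, against 39.5% of all common autosomal CpGs) and below at 2056 (42.0%, against 37.1%). It was exactly 0 at 711, with a median of 0. The 711 include the 710 without a methylated read, which could not differ.

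The CpGs with the smallest p are described next, and none passed the threshold. All 5 had an edgeR p of 0.892 after Benjamini-Hochberg adjustment. At 22182307 of chromosome 16 no methylated read was counted among 42, 31 and 365 reads with SAM, and controls stood at 21.5, 38.1 and 24.4% of 251, 181 and 119 reads. At 31 reads a count of 0 allows up to 9.68%. The groups did not overlap there (unadjusted p = 0.000565 from edgeR). The neighbouring CpG 2 bases before it, at 22182305 on the same strand, was at 83.7, 100 and 28.3% with SAM and 21.4, 42.6 and 52.5% in controls, with overlapping groups. Another CpG of that window, at 22182285, was at 100, 0 and 69.7% with SAM and 21.0, 82.0 and 100% in controls. These neighbours on the same strand thus ranged from 0 to 100% between libraries, and neither separated the groups.

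At 92232169 of chromosome 14 there was again no methylated read with SAM, among 49, 27 and 635 reads, and controls were at 30.7, 17.2 and 37.5% of 179, 58 and 24 reads. At 27 reads a count of 0 allows up to 11.1%. The other CpGs of the window, 28 and 30 bases before, were between 33.3 and 100% with SAM and between 21.8 and 79.7% in controls. The CpG at 3880927 of chromosome 19 stood at 0% in the 3 SAM libraries, from 31, 18 and 265 reads, and at 18.6, 20.5 and 12.8% in controls. At the 18 reads of SAM replicate 2 a count of 0 allows up to 16.7%, which is above control replicate 3. Its neighbour 6 bases on, at 3880933, was at 0% in SAM replicates 1 and 2 and above control replicates 2 and 3 in SAM replicate 3, so the groups overlapped.

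The remaining 2 of the 5 were higher with SAM by small amounts at greater depth. At 57419385 of chromosome 14 the SAM libraries were at 5.06, 3.33 and 7.09% and the controls at 0.136, 0.679 and 0.571%, from 120 to 846 reads. The CpG 11 bases before it was at 0% in 5 libraries and at 0.128% in SAM replicate 3. The CpG at 27621401 of chromosome 17 lies beside a window of 20 listed CpGs. Methylation there was 0.233, 0.521 and 0.813% of 2572, 192 and 369 reads with SAM. It was 0% of 876, 86 and 2560 reads in controls. The unadjusted p was 0.00256 from edgeR but 0.0824 from limma. At the 86 reads of control replicate 2 a count of 0 allows up to 3.49%, which is above the SAM values. At the 2560 reads of control replicate 3 it allows up to 0.117%, which is below them. Other CpGs of its window were between 0 and 1.19% in every library.

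**Figure D5:**
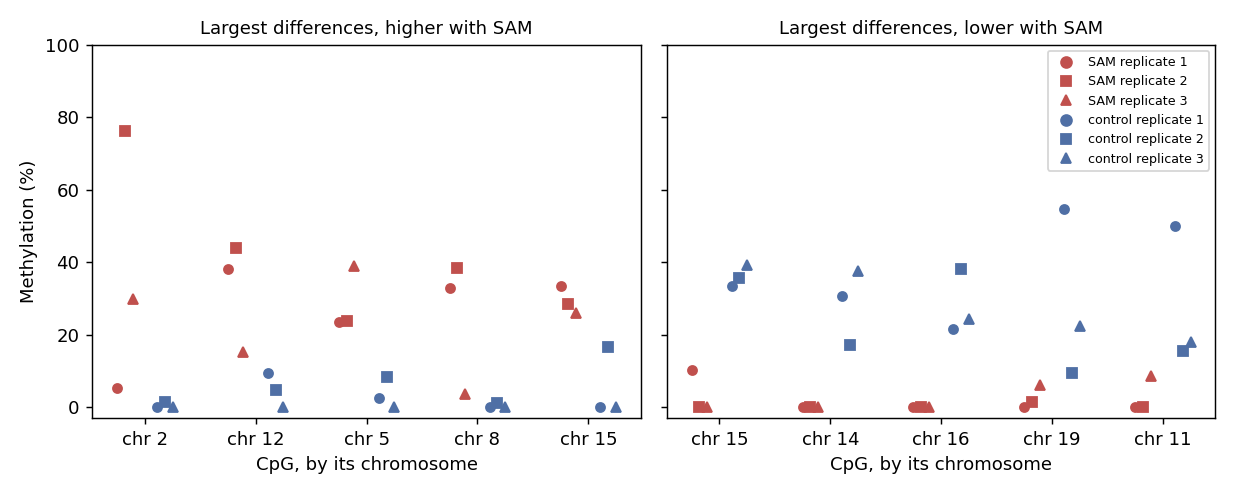
Methylation (%) in each library at the 5 CpGs with the largest mean difference in each direction among the unmethylated CpGs of sparse windows whose groups did not overlap, named by chromosome; one point per library. Differences run from 23.7 to 36.6 points on the left and from -24.9 to -32.6 points on the right, and none of the 10 CpGs passed the adjusted threshold.

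Among CpGs whose groups did not overlap, the largest differences were wider than the threshold that chose the CpGs. That is possible because the rule used the mean of the 6 libraries. The largest toward SAM was at 10590318 of chromosome 2, where SAM libraries were at 5.41, 76.2 and 29.9% and controls at 0, 1.61 and 0%, from 21 to 87 reads. SAM replicate 2 carried much of it, since the difference of 36.6 points was 17.1 without that library. The 18 common CpGs within 2000 bases outside its window averaged 0.165%. Within its window, the CpG 12 bases on, at 10590330 on the same strand, was at 5.26, 75 and 21.1% with SAM and 0, 6.25 and 46.8% in controls, and its groups overlapped. Next were 62273165 of chromosome 12 (27.8 points), 7675209 of chromosome 5 (25.1 points), 144821494 of chromosome 8 (24.6 points) and 78094223 of chromosome 15 (23.7 points). At 7675209 the CpG 17 bases before was at 70.6, 47.4 and 79.3% with SAM and 23.7, 25 and 50% in controls, so the groups overlapped there. The CpG beside 78094223, 6 bases on, was at 64.1, 28.6 and 26.3% with SAM and 0, 16.7 and 0% in controls, and its groups did not overlap either.

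Toward lower values with SAM, the largest difference was at 28212896 of chromosome 15. SAM libraries were at 10.4, 0 and 0% and controls at 33.3, 35.7 and 39.3%, from 20 to 65 reads, a difference of -32.6 points. The nearer CpG of its window, 6 bases before at 28212890, was at 18.8, 0 and 12.3% with SAM and 19.6, 17.9 and 17.9% in controls, and its groups overlapped. Another 35 bases before, at 28212861, was at 72.3, 34.8 and 87.7% with SAM and 97.8, 88.9 and 96.3% in controls, without overlap. The sites of chromosomes 14 and 16 given above came next, at -28.5 and -28.0 points. Then came 19661586 of chromosome 19 (-26.3 points) and 74816519 of chromosome 11 (-24.9 points), where 1 control library was far above the other controls. Without control replicate 1 these 2 differences were -13.4 and -13.9 points. The other common CpGs in the windows of 62273165, 7675209, 144821494 and 74816519 all had overlapping groups, and 19661586 was the only listed CpG of its window. The edgeR p adjusted over all CpGs was 0.892 for these sites as well.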

How the data were processed

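Bisulfite sequencing lists of 6 PC-3 libraries were used, 1 list per library. Per the file headers, the authors listed cytosine positions, each with its read count (coverage) and its percent C and percent T. The submitters' processing notes name Bismark 0.7.4, methylKit 0.5.3, CASAVA 1.8.2, FastQC 0.10.0 and hg19, with no role or order. The lowest coverage in each deposited list was 10 reads. Not given in the sources used here are the library type, read filters and duplicate removal.

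Methylated reads were recomputed as coverage times percent C and rounded. Each minus-strand position was moved 1 base down to its plus-strand partner, and reads of the strands were added. The members, classes and lists were chosen with earlier results of these data known. Named CpGs are those with the smallest p (5), the largest rise and fall without overlap (5 each), the values nearest the threshold (3 each side), the largest steps in a window (5), the greatest lowest coverage (3), the widest range (5, with 12 tied) and the 100 kb bins with the most members (3, with 4 tied). Single CpGs were tested with edgeR 4.0.16 (R 4.3.3), over the 257696 CpGs with both kinds of read and with Benjamini-Hochberg adjustment. Dispersions were estimated without a trend, and the quasi-likelihood fit and test then used their default settings. Limma 3.58.1 and a logistic model were alternatives. The rest used Python 3.11.15 with pandas 2.3.3, numpy 2.4.6 and scipy 1.17.1. Gene annotation and genome sequence of hg19 were not used here, so no gene names or sequences are given.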

Additional observations from a re-analysis of the deposited data

How the results depend on the processing

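Of 26 other settings for the difference of the mean, 22 gave a value below 0 and 4 above, and 23 lay within 1 SD between libraries (0.289 points) of -0.123. Among the 23, a replicate block had to repeat -0.123 by arithmetic, and leaving out extreme coverage removed none of these CpGs. Leaving out 1 library with the CpGs kept could not leave that band either, since the same libraries set the SD. The settings outside 1 SD were the 10 CpGs read on both strands in every library (2.73 points) and the first split by read placement. That split gave 0.251 for SAM replicate 1 with control replicates 1 and 3, and -0.463 for the others. With SAM replicate 2 in the other set it gave -0.0928 and -0.183, both within 0.289 points of -0.123. Leaving out each library gave -0.258 to 0.0854 points with the CpGs kept, and -0.344 to 0.0668 with the CpGs chosen again by the mean level of 5 libraries. Placing SAM replicate 2 with the other set and leaving out the 52 CpGs high in 1 library were added after the data were seen. The edgeR count stayed at 0 at a minimum of 20 reads, without the zero filter, without extreme coverage, with a replicate block, with either coverage batch term and without each library, and limma gave 0. At a minimum of 20 reads, 60 of 2280 CpGs had an unadjusted p under 0.05 (2.63%, against 2.77% of all CpGs in that fit), the same share as 110 of 4189. The logistic model called 1109. Deviations of same-numbered libraries, over the 336571 common CpGs of all chromosomes, correlated at -0.00509, 0.00846 and -0.00791. Deviations of single CpGs also hold counting error, so these values show no pairing but cannot exclude one. The replicate block gave 0 calls, with 141 CpGs at an unadjusted p under 0.05 (3.37%, against 3.65% of all CpGs in that fit). The share with unmethylated surroundings, 63.6%, was 75.2% within 1000 bases, 49.9% within 5000 bases, 57.4% for surroundings under 10% and 67.6% at a minimum of 20 reads, and 63.7 to 64.3% without each library. The cause of these shifts was not tested.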
